A study of Mus musculus with 8 samples.

Results

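The Hox genes encode homeodomain transcription factors that set positional identity along the body axis. All 39 mouse protein-coding genes named Hoxa, Hoxb, Hoxc or Hoxd with a paralog number were taken, out of 21887 protein-coding genes on the same 21 chromosomes of GRCm38.p6. They fall into 4 clusters. Hoxa, with 11 genes, lies on chromosome 6. Hoxb, with 10 genes, lies on chromosome 11 from 96194316 to 96368254. Hoxc, with 9 genes, lies on chromosome 15 from 102921131 to 103036856, and Hoxd, also with 9 genes, lies on chromosome 2 from 74668225 to 74765142. Of the 76872 accessible regions of the series, 51 overlapped a cluster extended by 50 kb on each side.

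Open chromatin was mapped by ATAC-seq, which uses Tn5 transposase to tag accessible DNA. The cells were mouse induced pluripotent stem cells from 1 clonal line carrying the FUCCI2 cell cycle reporters. They were kept on irradiated feeders in medium containing fetal bovine serum and LIF together with a MEK and a GSK3 inhibitor, and 50000 cells went into each library. The 4 groups of 2 libraries were cells shaken off in mitosis after 6 hours in nocodazole at 200 ng/ml (Mitotic_0h), such cells 1 hour (Mitotic_1h) and 3 hours (Mitotic_3h) after release, and untreated cells (Asynchronous). The labels name total RNA as the molecule, while titles and protocols describe ATAC-seq of nuclei. The deposited list of regions is 1 for all 8 libraries and gives no value per library, so each statement below is about where chromatin was open in the series as a whole, and none is about a change between groups. Depth is unknown for the same reason, and a region absent from the list is one that was not called rather than one shown to be closed. The pluripotency genes Pou5f1, Nanog, Sox2 and Klf4 each had a region within 1 kb of an outer limit, which is only a weak check of the label because 62.0% of all protein-coding genes had one, while of 4 feeder fibroblast genes Twist1 and Twist2 had one and Col1a2 and Col3a1 had none. The part of feeder cells in the regions was not tested.

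In each cluster the genes lie in the order of their paralog numbers, and in the embryo low numbers are transcribed earlier and closer to the head and high numbers later and closer to the tail. In pluripotent cells the clusters are known as targets of Polycomb repression, with promoters that also carry marks of activity. Retinoic acid and Cdx factors are known to switch them on, and Meis and Pbx proteins are partners of Hox proteins on DNA. These facts are background and not results of the series.

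The 250 bases before 6 annotated starts are shown first, because together they cover the range from a start lying wholly within an accessible region to a start with no region for kilobases. They are taken from RefSeq on GRCm38.p6, 5′ to 3′ on the strand of the gene, with the bases inside an atlas region in capitals.

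Hoxd1 (chr2:74762730-74762979, plus strand): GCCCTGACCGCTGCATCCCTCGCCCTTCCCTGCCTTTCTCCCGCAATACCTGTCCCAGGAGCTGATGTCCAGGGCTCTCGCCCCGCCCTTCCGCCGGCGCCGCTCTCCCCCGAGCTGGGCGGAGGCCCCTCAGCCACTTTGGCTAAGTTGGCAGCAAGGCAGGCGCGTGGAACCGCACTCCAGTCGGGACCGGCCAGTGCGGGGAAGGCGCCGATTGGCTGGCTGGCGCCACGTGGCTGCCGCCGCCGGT

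Hoxd10 (chr2:74691641-74691890, plus strand): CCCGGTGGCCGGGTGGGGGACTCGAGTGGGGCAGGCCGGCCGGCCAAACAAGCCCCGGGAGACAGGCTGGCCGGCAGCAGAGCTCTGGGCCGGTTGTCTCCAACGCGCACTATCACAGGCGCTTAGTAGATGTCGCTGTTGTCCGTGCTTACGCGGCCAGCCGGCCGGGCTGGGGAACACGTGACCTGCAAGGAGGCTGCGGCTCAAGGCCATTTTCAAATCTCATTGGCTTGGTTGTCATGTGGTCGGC

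Hoxb4 (chr11:96318017-96318266, plus strand): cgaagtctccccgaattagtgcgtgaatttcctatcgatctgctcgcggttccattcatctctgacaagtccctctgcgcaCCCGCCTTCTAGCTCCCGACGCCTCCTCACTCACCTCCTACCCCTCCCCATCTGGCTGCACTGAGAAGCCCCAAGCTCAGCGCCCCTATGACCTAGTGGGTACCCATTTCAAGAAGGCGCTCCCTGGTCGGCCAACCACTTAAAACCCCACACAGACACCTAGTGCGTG

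Hoxa13 (chr6:52260881-52261130, minus strand): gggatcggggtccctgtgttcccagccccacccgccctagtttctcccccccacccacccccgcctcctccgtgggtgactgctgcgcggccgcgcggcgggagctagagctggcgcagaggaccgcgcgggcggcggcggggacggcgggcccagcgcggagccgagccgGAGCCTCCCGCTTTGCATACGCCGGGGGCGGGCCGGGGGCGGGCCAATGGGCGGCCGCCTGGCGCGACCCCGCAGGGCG

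Hoxd4 (chr2:74721728-74721977, plus strand): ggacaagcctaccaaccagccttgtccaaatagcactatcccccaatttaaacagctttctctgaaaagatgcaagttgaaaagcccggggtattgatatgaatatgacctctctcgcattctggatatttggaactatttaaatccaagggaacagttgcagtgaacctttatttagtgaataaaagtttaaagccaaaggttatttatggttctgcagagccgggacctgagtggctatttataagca

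Hoxb1 (chr11:96365508-96365757, plus strand): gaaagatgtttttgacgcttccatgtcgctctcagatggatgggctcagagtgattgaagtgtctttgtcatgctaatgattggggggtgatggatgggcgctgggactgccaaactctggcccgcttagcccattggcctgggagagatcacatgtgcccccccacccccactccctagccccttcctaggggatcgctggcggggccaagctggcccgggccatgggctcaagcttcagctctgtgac

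All 250 bases were accessible at Hoxd1 and Hoxd10, 169 at Hoxb4 and 79 at Hoxa13, next to the start in each case. None were at Hoxd4, where the nearest region lay 5.94 kb from the start, or at Hoxb1, where it lay 11 kb away. The table of starts held 24 entries for 22 of the 39 genes, all on the minus strand for Hoxa and on the plus strand for the other clusters. Among the 17 genes with no entry were Hoxa4, Hoxb2, Hoxb3, Hoxb5, Hoxb6, Hoxb7, Hoxb9, Hoxb13, Hoxc5, Hoxc6, Hoxc8, Hoxc9, Hoxc10, Hoxc11, Hoxc12 and Hoxc13.

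Regions were closer together inside the clusters than in their flanks of 50 kb or in the atlas as a whole. The 4 spans, 492 kb in all, held 41 regions, or 8.33 per 100 kb, against 2.84 per 100 kb over the whole atlas. The flanks of 50 kb, 8 in number, held 10 regions, or 2.5 per 100 kb. For Hoxb the difference from the flanks did not hold at 100 kb, where the window held 22 regions, against 12 at 50 kb. Regions covered 2.81% of the clusters and 1.04% of all chromosome spans. Counted per gene, the spans held 1.05 regions for each Hox gene, with regions outside the spans left out. The atlas held 3.51 regions for each protein-coding gene of the genome, with all regions counted wherever they lay. The per-gene figures are therefore not like measures.

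Hoxc was the densest cluster, with 13 regions or 11.2 per 100 kb, followed by Hoxd with 10 regions or 10.3 per 100 kb. Hoxa held 9 regions, or 8.53 per 100 kb. Hoxb also held 9, or 5.17 per 100 kb. The covered share was similar in Hoxa (3.6%), Hoxc (3.61%) and Hoxd (3.35%) and lower in Hoxb (1.48%). There is 1 count per cluster and no replicate, so these differences have no error beyond the counts themselves.

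Windows of the same length, moved along all chromosomes in steps of 10 kb, serve as background. As many regions as in Hoxc were found in 2.34% of windows, as many as in Hoxd in 3.87%, as in Hoxa in 6.91% and as in Hoxb in 18.9%. The median window held 2 regions at the length of Hoxa, Hoxc or Hoxd and 4 at that of Hoxb. The clusters are also rich in genes. Among windows that touched at least as many protein-coding genes as the cluster holds, a background chosen after the first was seen, the shares were 40.3% for Hoxc, 58.2% for Hoxd, 75.7% for Hoxa and 77.9% for Hoxb. The medians of these windows were 11, 10.5, 12 and 15 regions, so that Hoxc lay above its median, Hoxd below it by a fraction of 1 region, and Hoxa and Hoxb lower still.

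**Figure D1:**
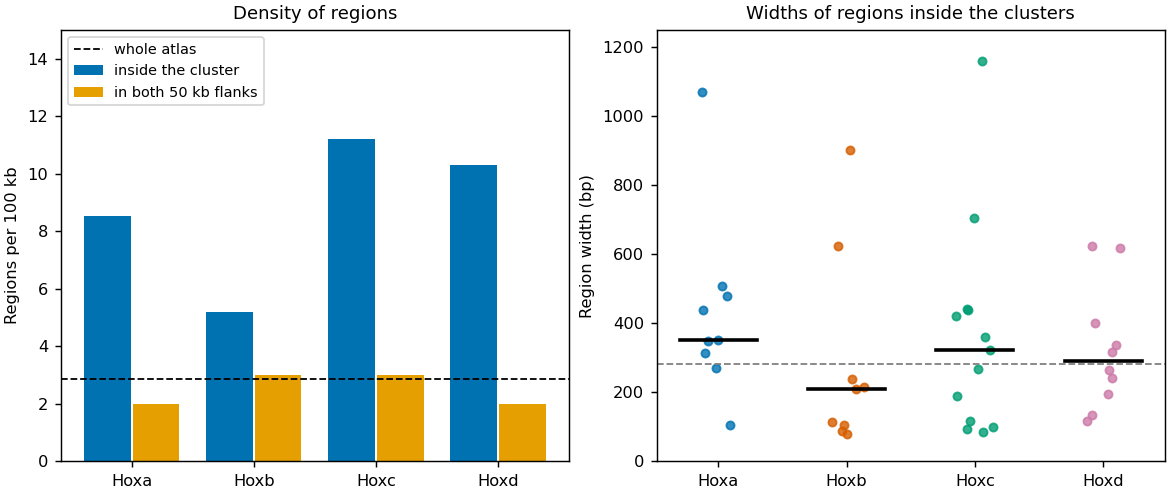
Left, regions per 100 kb inside each Hox cluster (blue) and in its 50 kb flanks together (orange), with the whole atlas as a dashed line. Right, the width in bp of every region inside each cluster, 1 point per region, with the median as a black bar and the atlas median of 281 bp as a dashed line. All clusters exceed the atlas density, from 5.17 in Hoxb to 11.2 in Hoxc, and Hoxb has the narrowest median, 208 bp.

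Regions were narrowest at the median in Hoxb. The 41 regions inside clusters had a median of 313 bp (quartiles 132 and 439 bp), near the 281 bp of the atlas. The medians were 351 bp in Hoxa, 323 bp in Hoxc and 291 bp in Hoxd, and 208 bp in Hoxb. In Hoxb, 2 of 9 regions reached the atlas median, against 7 of 9 in Hoxa, 7 of 13 in Hoxc and 5 of 10 in Hoxd. No region inside a cluster had the minimum width of 73 bp.

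Regions lay both in and between Hox genes. Of the 41 inside, 28 touched a Hox gene and 13 lay between Hox genes, and 21 lay within 1 kb of an outer limit of a Hox gene, 1 of them within reach of both Hoxa5 and Hoxa6. In the whole atlas, where genes lie farther apart, 15779 of 76872 regions lay that near a protein-coding gene limit. Hox genes as annotated filled 69.8% of the Hoxa span, 67.9% of Hoxd, 55.1% of Hoxc and 43.2% of Hoxb. Regions touching a Hox gene were 8 of 9, 8 of 10, 9 of 13 and 3 of 9 in that order. Their share was above the filled share in Hoxa, Hoxd and Hoxc and below it in Hoxb, which was not tested. The spans of Hoxa3 (44.0 kb), Hoxb3 (40.8 kb) and Hoxd3 (36.3 kb) run across neighbours, namely Hoxa4, Hoxa5 and Hoxa6 in Hoxa3, Hoxb4 in Hoxb3 and Hoxd4 in Hoxd3. Regions touching these 3 genes can therefore belong to the start of another Hox gene. Of 29 intervals between neighbouring Hox genes, 10 held a region, and no background was counted for such intervals.

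**Figure D2:**
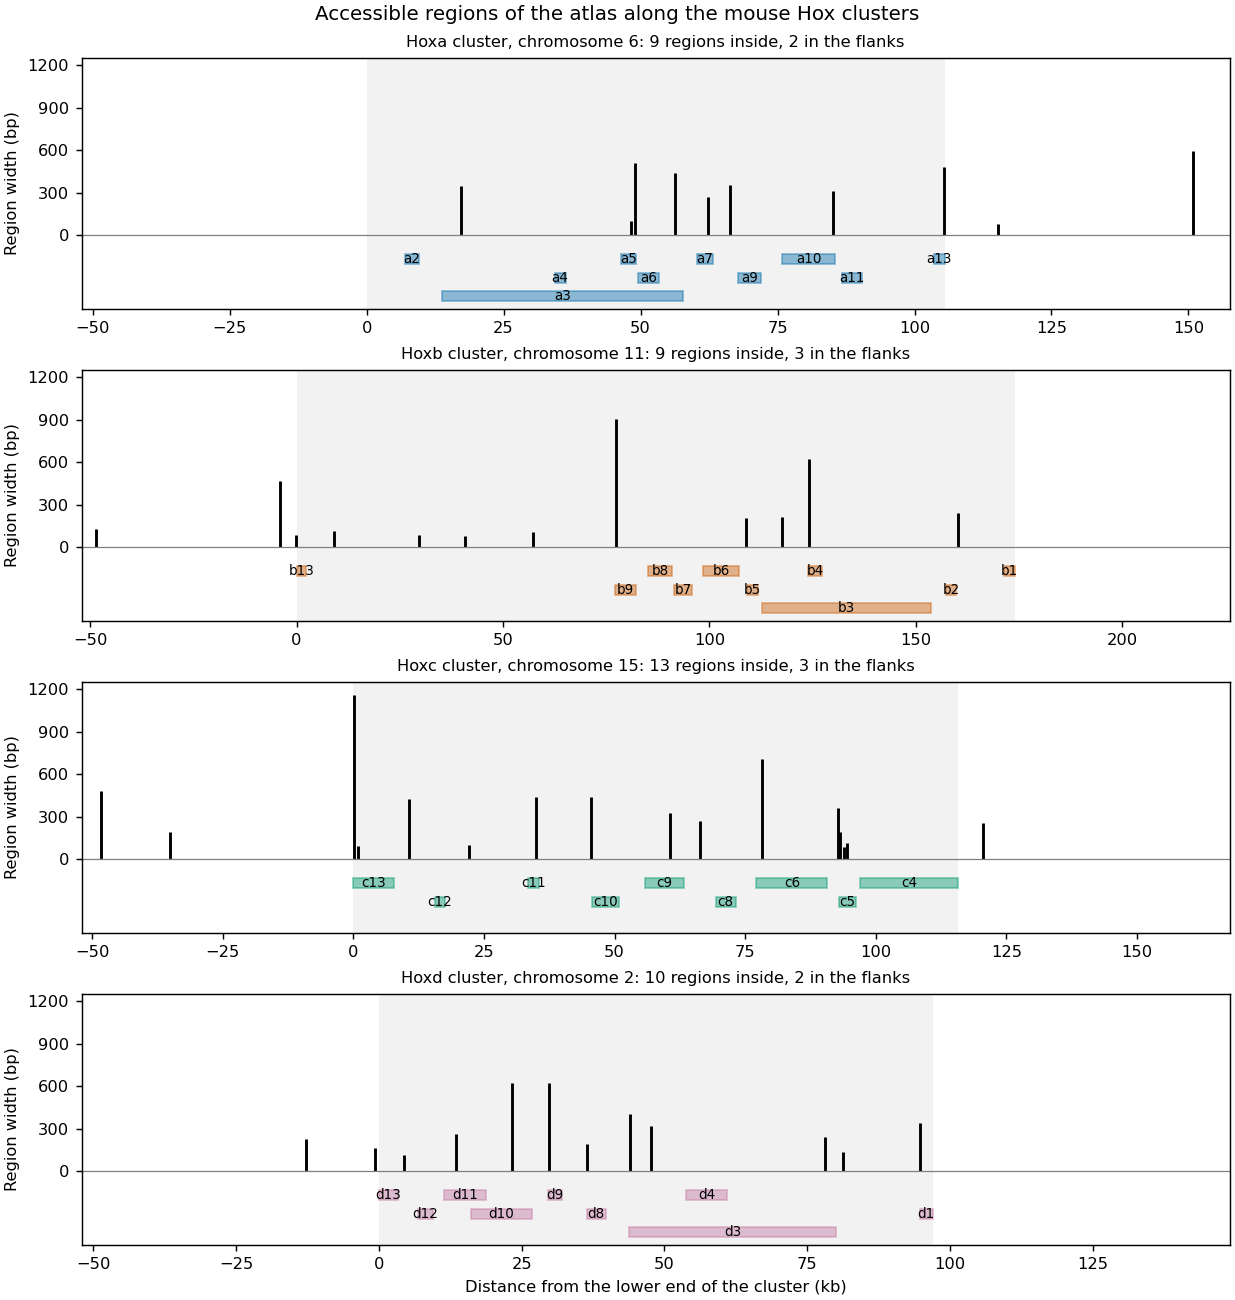
Each panel shows 1 Hox cluster, with the distance in kb from its lower end on the x axis and the width in bp of each accessible region as the height of a black line. Coloured boxes below mark Hox genes by letter and number, and the grey area is the cluster. The long empty stretches, the low lines between Hoxb13 and Hoxb9, and the wide regions at Hoxb9 and Hoxc13 stand out. In the Hoxa panel 1 gene and its region are not drawn.

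A region lay within 1 kb of an outer limit of 21 of the 39 Hox genes (53.8%), against 62.0% of all protein-coding genes. With 39 genes this difference rests on few genes, and it was not tested. The count takes either end of a gene. Taking the strand of the other genes of the cluster where a gene has no entry, Hoxa6, Hoxb2 and Hoxc11 counted only through the end opposite the start. A further 5 genes, Hoxa3, Hoxb3, Hoxc9, Hoxd10 and Hoxd11, had a region only farther inside. Together 26 had a region in the gene or within 1 kb, or 66.7%, against 73.6% of all protein-coding genes. The remaining 13 had none. Near the limit of 1 kb, regions at 872 and 879 bp from Hoxa5 and Hoxc13 counted, and those at 1019 and 1039 bp from Hoxd13 and Hoxc5 did not.

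The regions at Hox gene ends, 23 in number, were 83 to 1161 bp wide with a median of 360 bp. Those at the ends of all protein-coding genes had a median of 525 bp and those of the whole atlas 281 bp. The regions inside clusters and away from Hox gene ends, 20 in number, had a median of 228 bp. No Hox gene had a region at both of its ends.

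In Hoxa, 6 of 11 genes had a region at an end. Hoxa13, the limb and genital gene at the upper edge of the cluster, had a region of 479 bp across its upper limit at chromosome 6, 52260481 to 52260959. Hoxa5, known for its part in lung development, had the most regions at its ends in Hoxa, 103 and 509 bp wide, the wider one across its upper limit and 245 bp from Hoxa6. Hoxa10 had a region of 313 bp and Hoxa7 one of 270 bp, 242 and 760 bp inside their upper limits.

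Between these genes, regions of 348 and 437 bp lay within the annotated span of Hoxa3, 3.42 and 1.25 kb from its limits, and 1 of 351 bp lay between Hoxa7 and Hoxa9. Regions thus stood at intervals from Hoxa5 to Hoxa9, and the longest empty stretch, of 30.8 kb from 52172827 to 52203612, took in Hoxa4. Hoxa2, Hoxa4, Hoxa9 and Hoxa11 had no region within 1 kb, and for Hoxa4, Hoxa9 and Hoxa11 the nearest lay 11.9, 1.20 and 1.49 kb away. The lower flank was empty, and the next region below lay 76.2 kb from the cluster. The nearest coding gene on that side, Skap2, lay 143 kb away and had a region of 1116 bp at an end. The upper flank held regions of 80 and 594 bp, 9.74 and 45 kb beyond Hoxa13. Beyond that flank, 52.6 kb from the cluster, the homeobox gene Evx1 had a region of 818 bp at an end.

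In Hoxb, 5 of 10 genes had a region at an end. Hoxb9 had the widest, 903 bp at chromosome 11, 96271288 to 96272190, across its lower limit. Hoxb4, known for its effect on blood stem cells, followed with 625 bp at 96318098 to 96318722. The rest were narrow, with 238 bp beyond Hoxb2, 208 bp before Hoxb5 and 83 bp before Hoxb13, 26 bp from the gene. A region of 214 bp lay in Hoxb3, 4.55 kb from its nearer limit.

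The interval between Hoxb13 and Hoxb9 was the longest between Hox genes of any cluster, at 74.7 kb, and held 4 regions of only 78 to 113 bp. Hoxb6, Hoxb7 and Hoxb8, which lie side by side, had none within 1 kb, with the nearest at 1.54, 12.9 and 7.21 kb. Hoxb1, the hindbrain gene at the far edge, had its nearest region at 11 kb. A stretch of 35.8 kb from within Hoxb4 to beyond Hoxb2, from 96318723 to 96354483, was the longest without a region in any of the clusters. The flank beyond Hoxb1 was empty too, and the next region lay 68.2 kb from the cluster, before Skap1, an adaptor protein gene 96.3 kb away with a region of 225 bp at an end. The flank beyond Hoxb13 held 3 regions, the widest of 464 bp 3.8 kb from Hoxb13, and reached Ttll6, a tubulin-modifying enzyme gene that had a region of 293 bp at an end.

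In Hoxc, 5 of 9 genes had a region at an end. The widest region of all 4 clusters, 1161 bp at chromosome 15, 102920621 to 102921781, crossed the lower limit of Hoxc13, a gene of hair and nail formation, and a second of 92 bp lay 879 bp inside the gene. Hoxc6 followed with 704 bp, 821 bp inside its lower limit. Hoxc11 and Hoxc10 had regions of nearly equal width, 440 and 439 bp. Hoxc5 had 4 regions in the gene or within 1 kb, the most of any Hox gene together with the long Hoxa3, of 360, 188, 85 and 115 bp.

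Hoxc9 had a region of 323 bp, 2.64 kb inside the gene. Hoxc12, Hoxc8 and Hoxc4 had none within 1 kb, with the nearest at 4.54, 2.92 and 2.38 kb. Other regions lay between genes, with 421 bp between Hoxc13 and Hoxc12, 99 bp between Hoxc12 and Hoxc11 and 266 bp between Hoxc9 and Hoxc8. The longest gap between neighbouring regions inside the cluster was 14.6 kb, and beyond the last of them, which ends at 103015716, the rest of the cluster to 103036856, with the whole of Hoxc4, held no region. The flanks held 3 regions, the widest of 481 bp. The nearest coding genes, Calcoco1 and Smug1, lay 199 and 116 kb away, and of these Calcoco1 had a region of 560 bp at an end and Smug1 none there.

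In Hoxd, 5 of 9 genes had a region at an end, and the widest regions stood at Hoxd9 and Hoxd10. Hoxd9 had one of 625 bp at chromosome 2, 74697772 to 74698396, and Hoxd10 one of 619 bp at 74691295 to 74691913. That of Hoxd10 lay far from the outer limits of the gene but over its annotated start. Hoxd3 had a region of 401 bp, Hoxd1 of 336 bp, Hoxd8 of 194 bp and Hoxd13, a gene of digit formation, of 160 bp. Hoxd11 had a region of 265 bp in the gene.

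Hoxd4 and Hoxd12 had no region within 1 kb, with the nearest at 5.94 and 2.28 kb. The longest empty stretch, 30.1 kb from 74716043 to 74746175, took in Hoxd4. Regions of 317 and 242 bp lay within Hoxd3 on either side of it. Narrow regions lay between genes, 116 bp wide between Hoxd13 and Hoxd12 and 132 bp wide between Hoxd3 and Hoxd1. The flank beyond Hoxd13 held 2 regions, 1 of them of 227 bp inside Evx2, a homeobox gene 6.71 kb from Hoxd13. The flank beyond Hoxd1 was empty. The next region, 60.4 kb away and 846 bp wide, touched Mtx2 at an end. That gene encodes a mitochondrial protein.

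By paralog number, the genes with a region at an end ranged from all at numbers 5 and 13 to none at number 12. Each number has only 2 to 4 genes, and 62.0% of all protein-coding genes had such a region. Full counts are therefore not read as a trait of a number. All 4 genes of paralog 13 had a region within 1 kb of an end, which touched Hoxa13 and Hoxc13 and lay outside Hoxb13 and Hoxd13. The widths were unequal, with 1161 bp at Hoxc13, 479 bp at Hoxa13, 160 bp at Hoxd13 and 83 bp at Hoxb13. The count for paralog 13 also depends on the settings. The Hoxd13 region lay 537 bp from the gene, beyond a limit of 500 bp, and those of Hoxb13 and Hoxd13 were narrower than the atlas median of 281 bp. Paralog 5 had 3 of 3, with 509 bp at Hoxa5, 360 bp at Hoxc5 and 208 bp at Hoxb5. At the other extreme, neither Hoxc12 nor Hoxd12 had a region within 1 kb, and of paralog 4 only Hoxb4 had one, while Hoxa4, Hoxc4 and Hoxd4 had none. Members of 1 paralog number thus mostly differed among clusters, as at paralog 9, where Hoxb9 had 903 bp and Hoxd9 625 bp at an end, Hoxc9 323 bp inside the gene, and Hoxa9 nothing within 1 kb.

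Grouped, regions at an end were found at 4 of 8 genes of paralogs 1 to 3 (50%), 8 of 15 of paralogs 4 to 8 (53.3%) and 9 of 16 of paralogs 9 to 13 (56.2%). By this count the shares were nearly the same along the body axis order. All were below the 62.0% of the genome, but these gaps rest on few genes and were not tested. The genes without any region within 1 kb numbered 2 of 8, 7 of 15 and 4 of 16, relatively most in paralogs 4 to 8. Of all protein-coding genes, 73.6% had such a region. That share was near those of paralogs 1 to 3 and 9 to 13 and above that of paralogs 4 to 8, which was not tested. By nearest Hox gene limit, 10, 11 and 20 of the regions inside clusters belonged to these groups, with median widths of 326.5, 208 and 318 bp.

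**Figure D3:**
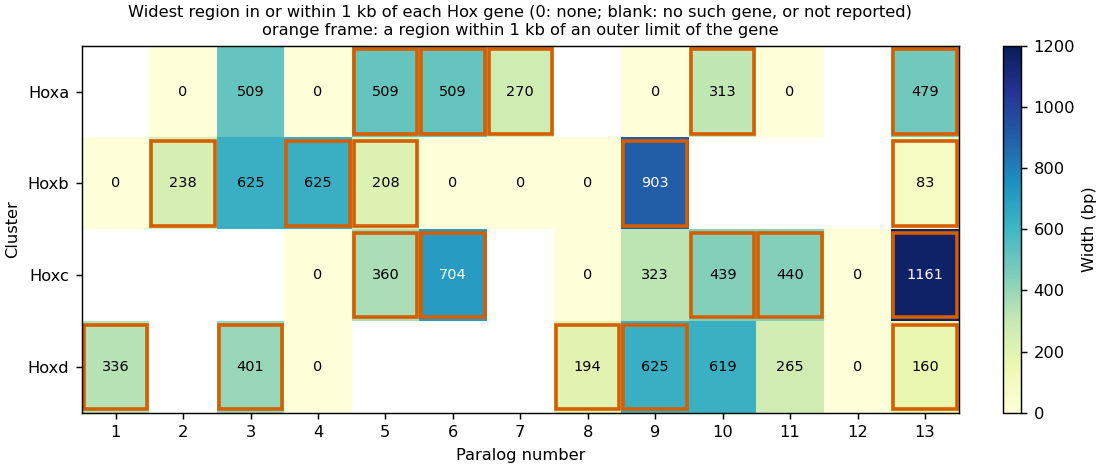
Rows are the 4 clusters and columns the paralog numbers, and each cell gives the width in bp of the widest region in the gene or within 1 kb of it, with 0 for none and blank where no such gene exists or it is not reported. Orange frames mark genes with a region within 1 kb of an outer limit. The columns of paralogs 5 and 13 are framed throughout, and the column of paralog 12 holds only 0.

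Annotated starts gave a similar count. Of the 22 Hox genes with an entry, 12 had a region within 1 kb of a start, or 54.5%, against 62.5% of all protein-coding genes with an entry. They were 7 of 9 Hoxd genes (Hoxd1, Hoxd3, Hoxd8, Hoxd9, Hoxd10, Hoxd11 and Hoxd13), 4 of 9 Hoxa genes (Hoxa5, Hoxa7, Hoxa10 and Hoxa13), Hoxb4 among 3 Hoxb genes, and not Hoxc4, the only Hoxc gene with an entry. The region lay over the start at Hoxa5, Hoxa13, Hoxb4, Hoxd1 and Hoxd10. At Hoxd9, Hoxd8 and Hoxd3 it began 9, 16 and 79 bp after the start. At Hoxd13 it ended 537 bp before the start, and at Hoxd11 it ended 449 bp before the second of its 2 starts.

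Within the narrower window of 250 bases before to 50 after a start, 7 of the 22 genes had an overlap of at least 1 bp, or 31.8%, against 57.8% of all protein-coding genes with an entry. The 7 were Hoxd1 with 300 bp covered, Hoxd10 with 273, Hoxb4 with 219, Hoxa13 with 129, Hoxa5 with 76, Hoxd9 with 41 and Hoxd8 with 34. At Hoxd8 and Hoxd9 only bases after the start were covered.

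Ratios of CpG at Hox starts ranged widely whether an accessible region lay there or not. The CpG dinucleotide is rare in most of the genome and kept at many promoters, and its observed count is divided here by that expected from the C and G of the window. In the 7 covered Hox windows the median ratio was 0.754 (range 0.367 to 1.02), close to the 0.781 of all covered coding windows. In the 17 Hox windows that were not covered it was 0.596 (0.257 to 0.970), near the 0.567 of all coding windows and above the 0.215 of all coding windows not covered. The uncovered windows of Hoxa7, Hoxa9, Hoxb1, Hoxc4, Hoxd4 and the first start of Hoxd11 had ratios of 0.405, 0.280, 0.380, 0.333, 0.339 and 0.257. The share of G and C was 62.7% at the median in covered and 55% in uncovered Hox windows, and 62.0% and 48.3% over all coding windows. The covered Hox windows overlapped the uncovered ones in both measures. Hoxa6, Hoxb8, Hoxd3 and Hoxd13 had ratios of 0.923, 0.970, 0.920 and 0.904 with no region in the window, and Hoxd8 had 0.367 with one.

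**Figure D4:**
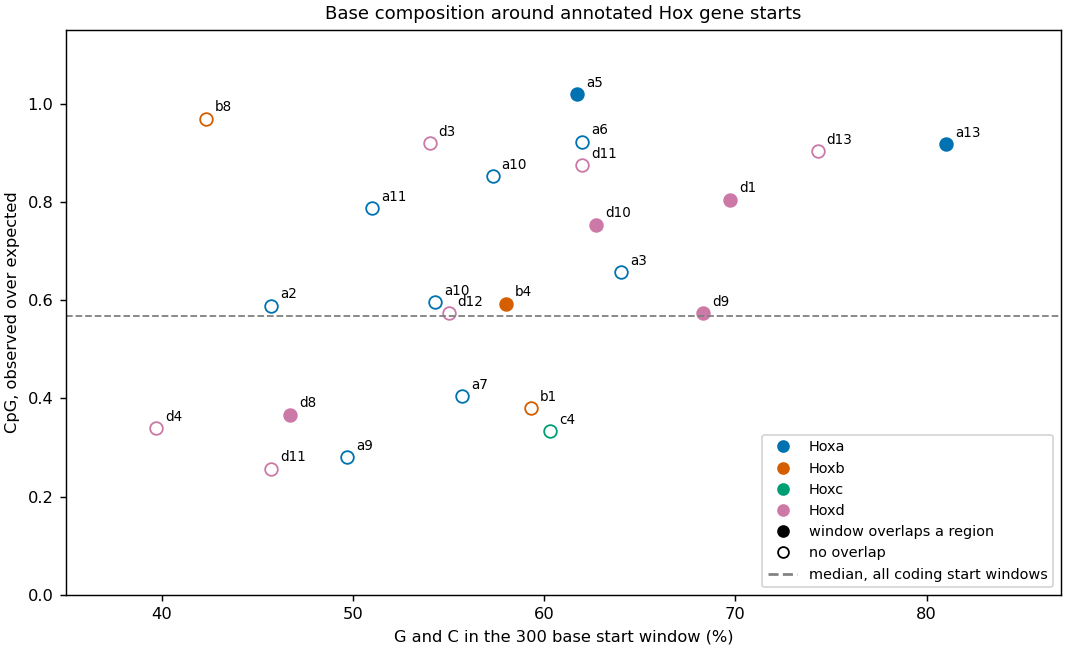
Each point is 1 of the 24 start windows of 300 bases, labelled by cluster letter and paralog number, with its share of G and C on the x axis and its ratio of observed to expected CpG on the y axis. Filled points overlap an accessible region by at least 1 bp, and the dashed line is the median of all coding windows, 0.567. Filled and open points are mixed, and open points such as b8, d3 and d13 lie among the highest ratios.

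Motifs were searched as exact letters on both strands, and none of them contains another. CCAAT was found in 15 of the 24 Hox windows (62.5%) and in 38.2% of all coding windows. GGGCGG was found in 10 (41.7%, against 46.2%), CCCTC in 17 (70.8%, against 69.6%) and TATAAA in 4 (16.7%, against 12.6%), namely 1 window each of Hoxa10, Hoxb8, Hoxd4 and Hoxd13. TAATTA, the core read by many homeodomains, was found in 2 windows (8.33%, against 4.53%), both of Hoxd11. Of the covered Hox windows, 5 of 7 held CCAAT, against 40.2% of all covered coding windows. The uncovered Hox windows held it in 10 of 17 (58.8%), against 35.8% of all uncovered coding windows. None of the 7 covered Hox windows held TATAAA or TAATTA, which are also rare in all covered coding windows (5.82% and 2.14%).

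The clusters also hold non-coding genes. Of 25 long non-coding RNA genes touching the spans, 12 had a region within 1 kb of an end, or 48.0%, against 31.5% of all such genes in the annotation. These genes overlap or adjoin Hox genes, and many of the regions are shared with them. Haglr, between Hoxd3 and Hoxd1, had 2 such regions, 1 of which covered the start of Hoxd1. Hotair, in Hoxc, had a region of 99 bp 818 bp away. Hottip, beyond Hoxa13, had none within 1 kb.

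Of 6 microRNA genes in the clusters, Mir10a and Mir615 had a region within 1 kb (2 of 6, against 18.2% of all microRNA genes) and none was touched. Their mature 5p strands fall into families with 1 seed each, bases 2 to 8, shown in capitals for the families with a copy in more than 1 cluster. These microRNAs are known to act on Hox messages.

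mmu-miR-10a-5p: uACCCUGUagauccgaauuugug

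mmu-miR-10b-5p: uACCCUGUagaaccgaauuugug

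mmu-miR-196a-5p: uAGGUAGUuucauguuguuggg

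mmu-miR-196b-5p: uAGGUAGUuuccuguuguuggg

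Mir10a lay 824 bp from the region at Hoxb4, while Mir10b, with the same seed, lay 10 kb from the nearest region in the empty stretch around Hoxd4. The copies of miR-196 were all far from a region, at 8.18 kb for Mir196b in Hoxa, 6.02 kb for Mir196a-1 in Hoxb and 6.49 kb for Mir196a-2 in Hoxc. Mir615 lay 46 bp from a region of 85 bp inside Hoxc5.

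The genes known to act on or with the Hox clusters are set beside the 62.0% of all protein-coding genes that had a region at an end. Regions were found at 17 of 17 Polycomb genes, with the widest at Pcgf1 (1261 bp) and Rnf2 (1206 bp), and at 11 of 11 Trithorax genes, with 1618 bp at each of Ash1l and Kmt2a, both histone methyltransferases. Of the Meis, Pbx and Pknox cofactors 7 of 9 (77.8%) had one, with 1177 bp at Meis1 and 957 bp at Pbx3. Meis3 and Pbx2 had none at an end, though Meis3 had 2 regions farther inside the gene. Of the retinoic acid genes 9 of 13 (69.2%) had one, a share near that of all genes, with 768 bp at Aldh1a3 and 738 bp at Rarg. None lay at an end of the receptor genes Rara and Rarb or of Cyp26a1 and Cyp26b1, which encode retinoic acid hydroxylases. Farther inside the gene, Rara, Rarb and Cyp26b1 had 9, 15 and 3 regions. Cyp26a1 had none in the gene or within 1 kb. The ParaHox genes, relatives of the Hox genes outside the clusters, had 4 of 6 (66.7%), also near that of all genes. The widest were 330 bp at Gsx1 and 238 bp at Pdx1. Cdx1 and Gsx2 had none at an end, though Cdx1 had 2 regions farther inside the gene.

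Beside other gene families that lie in clusters, the Hox count stood between extremes. A region at an end was found at 37 of 57 clustered protocadherin genes (64.9%, near the 62.0% of all protein-coding genes), at 62 of 62 replication-dependent histone genes and at 32 of 1106 olfactory receptor genes (2.89%). The median width of the widest region at an end was 439 bp over the 21 Hox genes, 324 bp over the protocadherins and 946 bp over the histones. The differences between families were not tested.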

How the data were processed

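Only the deposited list of accessible regions was analysed. The authors deposited a chromosome, start and end in base pairs for each region, with no score and no value per library. Per the submitters' processing notes, cutadapt, Bowtie2, Picard, SAMtools, bedtools and MACS2 2.1.1 were used with GRCm38 (mm10). Their settings, the treatment of Tn5 offsets and the way libraries were merged are details not given in the sources used here. In how many of the 8 libraries a region was open cannot be read from the list.

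Regions were set against RefSeq gene limits and starts of GRCm38.p6 with Python 3.11.15 and pandas 2.3.3, with coordinates from 1 and an overlap of at least 1 bp. A region was at a gene end if it reached within 1 kb of an outer limit. No library values exist, so no group was compared and no test was made: counts are set beside the same count over all genes or windows. The overlap code was checked on simulated data, with 0 disagreements in 4000 queries. The members, gene lists and rules were chosen with earlier results of these data known. Named in full were, per cluster, the genes with the most regions, with the widest region and with none within 1 kb, the widest region of each window and flank and the nearest flanking coding genes, and, of each pathway list, the members lacking a region at an end and the 2 with the widest. In Hoxa, 1 gene is included in the counts but not reported here.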

Additional observations from a re-analysis of the deposited data

How the results depend on the processing

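No paired analysis was possible because no file gives values for single libraries, and for that reason no replicate could be left out either. Of 51 alternatives, 41 gave counts within 1.5 times of those reported and 10 did not. Regions lay at an end of 17 Hox genes with a limit of 500 bp (43.6%, against 57.8% of all coding genes) and of 25 with 2 kb (64.1%, against 67.0%). When only regions at least as wide as the atlas median were kept, 15 Hox genes had one (38.5%, against 54.5%). Each share was below that of all coding genes, by little at 2 kb, and the differences were not tested. With those wider regions alone, paralogs 4 to 8 had 5 genes with a region at an end, and the windows held 3 regions in Hoxb, 8 in Hoxc and 5 in Hoxd. With flanks of 100 kb the Hoxb window held 22 regions, against 12 with 50 kb and 9 inside the cluster. The lower density around Hoxb thus holds only for the nearer flanks. With an overlap of at least 150 bp, 3 of the 22 Hox genes with an entry had a covered start window, against 51.5% of all coding genes with an entry. Against windows as rich in genes, an alternative chosen after seeing the data, the share with as many regions was 75.7% for Hoxa, 77.9% for Hoxb, 40.3% for Hoxc and 58.2% for Hoxd.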
